A study of Mus musculus with 6 samples.

Results

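Toll-like receptors (TLRs) and Myd88, the adaptor that most of them share, were examined in the anti-inflammatory macrophages (MPs) of injured mouse muscle, with and without the Cripto gene in the myeloid lineage. The members were 10 genes looked up by symbol in the gene table, namely Tlr1, Tlr2, Tlr3, Tlr4, Tlr6, Tlr7, Tlr8, Tlr9, Tlr13 and Myd88, and all 10 were found among its 13008 genes. RNA-seq was performed on GFP+/F4/80+/Ly6C-low MPs sorted from hind limb muscles of C57BL/6J mice, 3 months old and labelled male, on day 5 after cardiotoxin injury. There were 3 Control and 3 Cripto KO samples, described by the study as biological replicates. Control mice were described as Tg:LysMCre::R26mTmG (GFP-Control), although the labels give their genotype as wild type, and Cripto KO mice carried Tg:LysMCre::R26mTmG::Cripto fl/fl (GFP-Cripto My-LOF), given in the labels as Tg:LysMCre::Cripto-/-. By the study's description both groups therefore carried LysMCre, which drives Cre from the lysozyme M promoter in the myeloid lineage, and the GFP reporter of Cre activity. By the study's own measure, deletion of Cripto was incomplete even in GFP+ cells. Since the Cripto gene, Tdgf1, was not analysed here, the genotypes rest on the labels and the study's description, which differ for the Controls.

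TLRs are receptors of innate immune cells that recognize conserved molecules of microbes and of damaged tissue. TLR1, TLR2, TLR4 and TLR6 act mainly at the cell surface on lipopeptides and lipopolysaccharide, whereas TLR3, TLR7, TLR8, TLR9 and TLR13 act in endosomes on nucleic acids. All of them except TLR3 can signal through Myd88, which recruits IRAK kinases and leads to activation of NF-kB and of interferon regulatory factors. In injured muscle, MPs meet debris of dead fibers, and many TLRs also respond to such endogenous material.

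The deposited values are reads scaled to a normalized library size, here called normalized values, and whole reads could be recovered from them. Each sample held 12688968 to 14141773 reads among Controls, and 14633880 to 15659847 reads with Cripto deleted. The MP markers Adgre1, Cd68, Csf1r, Itgam, Fcgr1, Mertk, Mrc1 and Cx3cr1 were all detected, summing to 5679 to 6215 in the Controls and to 5521 to 6092 in Cripto KO, and 0 of the 8 had an adjusted p or an unadjusted p under 0.05 by limma. Groups did not overlap for 1 of the 8, Mrc1, which encodes CD206, against 14.5% of all genes. Mrc1 was 575 to 602 in the Controls and 616 to 677 in Cripto KO (limma adjusted p = 0.640). Of the Ly6C genes, Ly6c1 was at most 6.24 and Ly6c2 at most 3.42 in any sample. Of cells known for other TLR repertoires, the neutrophil genes S100a9, Ngp and Retnlg had 0 reads in all 6 samples, which allows up to 3 reads, or a normalized value of 0.222 to 0.286, by counting error alone. The other neutrophil markers analysed were detected, with 88 to 159 reads for Mmp8, 8 to 22 for S100a8 and 1 to 20 for Mpo. The highest Mpo count was that of Cripto KO replicate 3. Of the 8 listed neutrophil markers 6 were analysed, and Ly6g and Elane were not. Of the plasmacytoid dendritic cell genes, Siglech was between 0.956 and 2.41 and Tcf4 between 40.1 and 60.2. In bulk samples, fewer cells of a type and less RNA per cell cannot be told apart. Among the libraries, 2 Control samples stood apart in genes that mark sex or the Cre driver. Xist, the RNA of the inactive X chromosome, was 171 in Control replicate 1 but at most 0.885 elsewhere, against the label of male sex. Lyz2, the gene that holds LysMCre and that was looked up after earlier results were seen, was 11066 in Control replicate 2 but at most 28.3 elsewhere. Control replicates 1 and 3 were at 25.2 and 21.4, within the range of Cripto KO, 21.2 to 28.3. The labels give all Controls as wild type, and what the Lyz2 values say of the genotypes was not tested.

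The receptors were expressed at very different levels. To compare genes, each normalized value was divided by the length of the gene's longest annotated transcript in kb. Tlr2, which senses bacterial lipopeptides as a heterodimer with TLR1 or TLR6, had the highest level per kb among the members, with means of 184 ± 8.66 for Control and 155 ± 14.9 for Cripto KO (SD, n = 3 each). It made up between 66.3% and 73.8% of the summed level per kb of the 9 TLRs in the 6 samples. Myd88 followed with a mean of 24.9 per kb over all samples. Next came Tlr7 at 17.7, Tlr13 at 17.0 and Tlr1 at 15.2 per kb, and the ranges of Tlr7 and Tlr13 over the 6 samples overlapped, as did those of Tlr13 and Tlr1. The level per kb was 7.75 for Tlr8, 5.27 for Tlr4 and 4.92 for Tlr9, of which the last pair overlapped. Tlr3 at 1.81 and Tlr6 at 1.74 per kb were the lowest, and their ranges overlapped too. The 9 TLRs were covered by between 70 reads (Tlr6) and 7920 reads (Tlr2) in a sample. Per kb of the longest coding sequence, a length chosen after the data were seen, Tlr13 came before Tlr7 and the order was otherwise the same. By that length, however, Tlr8 at 8.59 (7.29 to 10.4) and Tlr4 at 8.58 (7.98 to 9.33) were not separated.

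**Figure D1:**
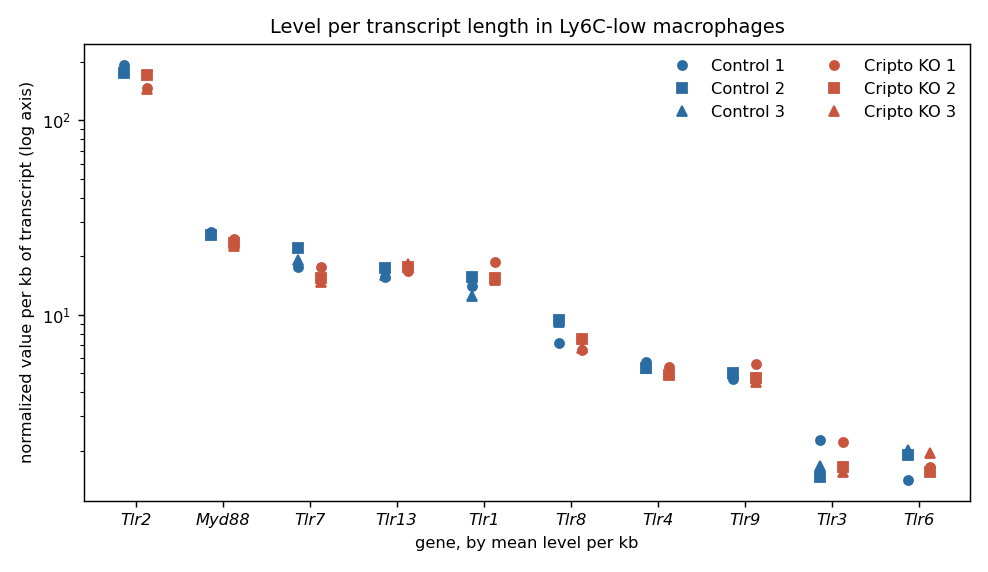
Normalized value per kb of transcript (log axis) of the 9 TLRs and Myd88, ordered by their mean, with 1 point for each of the 3 Control (blue) and 3 Cripto KO (red) samples. Tlr2 lies far above the other members in every sample, with a mean of 169 per kb, and Tlr3 and Tlr6 lie lowest, at 1.81 and 1.74 per kb.

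The promoters of Tlr2 and Myd88, the 2 members with the highest level per kb, were read from RefSeq (GRCm38.p6), from 250 bases before to 50 bases after the start. They are shown 5' to 3' on the strand of the gene, with capitals on matches to a motif of factors that act in TLR signaling. In Tlr2 the capitals mark matches to the kappaB motif, and in Myd88 the ISRE core (GAAA, any 2 bases, GAAA), both searched on both strands.
Tlr2 (chr3:83841559-83841858, minus strand): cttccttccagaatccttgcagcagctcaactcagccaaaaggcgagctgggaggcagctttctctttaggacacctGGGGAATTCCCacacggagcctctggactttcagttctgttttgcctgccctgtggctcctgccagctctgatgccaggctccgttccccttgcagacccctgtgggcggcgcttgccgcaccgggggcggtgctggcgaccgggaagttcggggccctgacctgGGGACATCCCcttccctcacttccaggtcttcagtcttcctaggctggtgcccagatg
Myd88 (chr9:119339969-119340268, minus strand): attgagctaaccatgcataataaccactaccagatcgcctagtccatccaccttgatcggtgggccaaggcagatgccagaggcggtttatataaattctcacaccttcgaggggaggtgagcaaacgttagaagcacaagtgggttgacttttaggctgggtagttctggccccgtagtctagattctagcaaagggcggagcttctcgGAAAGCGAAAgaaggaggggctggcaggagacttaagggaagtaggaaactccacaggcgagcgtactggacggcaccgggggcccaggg
The Tlr2 window held kappaB matches at 173 and 172 bases before the start, which overlap each other, and at 8 bases before it, and the Myd88 window held the ISRE core at 40 bases before the start. Of the 32851 promoters of this length in the RefSeq table, 4.51% held a kappaB match and 3.44% an ISRE core. Of the 10 members, 8 had a promoter entry, and Tlr4 and Tlr7 are named only. A kappaB match was also present in Tlr3, an ISRE core in Tlr6, and the PU.1 core GAGGAAG, found in 13.6% of all promoters, in Tlr1, Tlr9 and Tlr13, whereas the Tlr8 window held none of these letters. The 8 members had 10 entries, as Tlr1 and Tlr6 each had more than a single entry. For both genes another entry held none of these motifs, while the shares above are per promoter. The motifs were chosen with the results of these data known, and a match describes letters, not binding.

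Control and Cripto KO samples were compared gene by gene to ask whether loss of Cripto alters TLR expression in these MPs. Log2 fold changes are Control over Cripto KO, so a positive value means a higher level in Control, and p-values come from limma over all 13008 genes. None of the 10 members had an adjusted p under 0.05, against 0.131% (17 genes) of all genes. At an unadjusted p under 0.05 there were 3 members, Tlr2, Tlr7 and Tlr8, all higher in Control, while 8.59% of all genes had such a p in either direction and 4.6% were higher in Control. Groups did not overlap for 3 members, Tlr2, Tlr7 and Myd88, against 14.5% of all genes. The median log2 fold change was 0.07 over the members and 0.01 over all genes. Over all alternatives run, the lowest adjusted p of any member was 0.234.

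**Figure D2:**
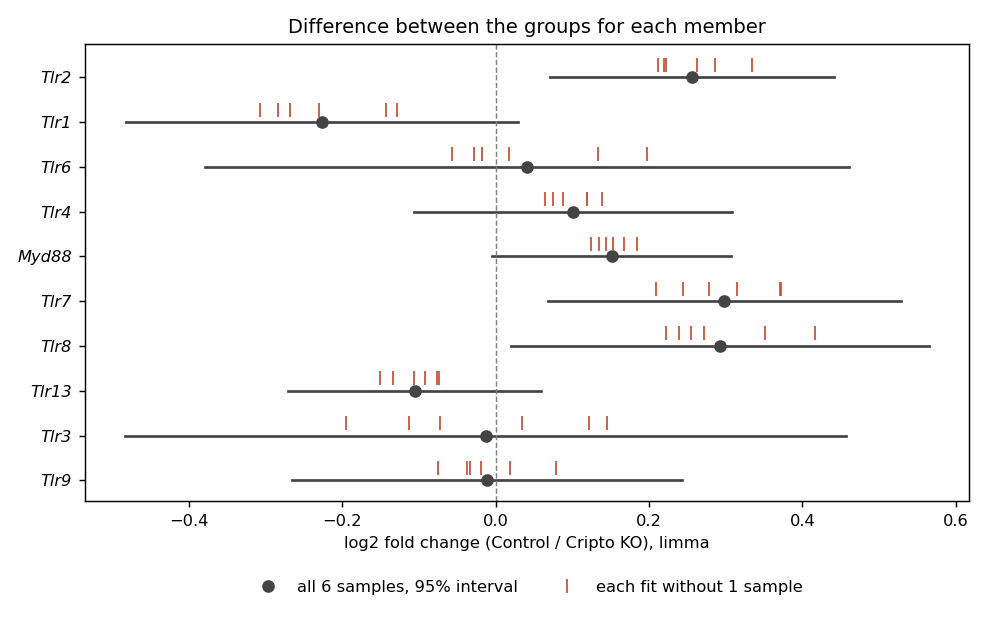
Log2 fold change of Control over Cripto KO for each member, with dots and lines for the limma estimate and its 95% interval over all 6 samples and red ticks for the 6 fits that each leave out 1 sample. The intervals of Tlr2, Tlr7 and Tlr8 lie above 0, that of Myd88 reaches just below 0, and the ticks of Tlr3, Tlr6 and Tlr9 fall on both sides of 0.

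At the cell surface, Tlr2 was lower in Cripto KO samples in all comparisons of single values. Tlr2 (chr3:83836272-83841767, GRCm38, minus strand) was 583, 532 and 550 in Control replicates 1, 2 and 3, against 443, 517 and 437 in those of Cripto KO, an order kept for all genes that follow. All 3 Control samples lay above all 3 Cripto KO samples, with Cripto KO replicate 2 near the lowest Control. The means were 555 ± 26.1 and 466 ± 45.0 (SD, n = 3), a 1.19-fold difference with a 95% interval of 1.05 to 1.36 (log2 fold change 0.26, SE 0.08, limma adjusted p = 0.479). With between 6333 and 7920 reads, counting error was 1.19% of the value, while the CV among replicates was 4.71% in Control and 9.66% in Cripto KO samples. The unadjusted p was under 0.05 in all 12 alternatives that keep the 6 samples and in 5 of the 6 fits that leave out 1. The exception was the fit without Cripto KO replicate 3 (log2 fold change 0.21, adjusted p = 0.881).

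Tlr1 and Tlr6, the receptors that pair with TLR2, are neighboring genes on chromosome 5 (Tlr1 chr5:64924679-64933563 and Tlr6 chr5:64952031-64960097, both on the minus strand) that share sequence. Of the 31-base words of their transcripts, 18.3% of those of Tlr1 occur in Tlr6 and 16.4% of those of Tlr6 occur in Tlr1, so reads there could be assigned to either gene. The longest run that their coding sequences share without a difference is printed to show where a read cannot separate them, in lower case throughout because every base is identical.
Tlr1 and Tlr6 (229 bases, chr5:64925537-64925765 in Tlr1 and chr5:64953828-64954056 in Tlr6): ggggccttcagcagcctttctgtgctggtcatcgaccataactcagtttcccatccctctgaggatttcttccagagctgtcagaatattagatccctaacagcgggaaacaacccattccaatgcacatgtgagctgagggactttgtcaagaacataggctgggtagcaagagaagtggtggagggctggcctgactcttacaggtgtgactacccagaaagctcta
Tlr1 was 42.4, 47.2 and 37.6 in Control replicates 1, 2 and 3, against 56.6, 46.7 and 45.7 in Cripto KO. Cripto KO replicate 1 was the highest, and Control replicate 2 lay above 2 of the Cripto KO samples, so the groups overlapped. The level in Cripto KO was 1.17 times that in Control, with a 95% interval of 0.98 to 1.40 (log2 fold change -0.23, SE 0.11, limma adjusted p = 0.637). Without Control replicate 2, the log2 fold change was -0.31 and the unadjusted p was under 0.05 (adjusted p = 0.597), whereas it was -0.14 when Control replicate 3 was left out (adjusted p = 0.859) and -0.13 when Cripto KO replicate 1 was (adjusted p = 0.835). Tlr6, covered by only 70 to 103 reads, was 5.19, 7.00 and 7.39 in the Controls, against 6.06, 5.70 and 7.13 in Cripto KO. Control replicate 1 was the lowest and the groups overlapped (log2 fold change 0.04, SE 0.19, limma adjusted p = 0.968). Counting error, at 10.6%, was close to the CV among Cripto KO samples of 11.8% but below that among Control samples of 18.0%. A difference from 0.768-fold to 1.38-fold between Control and Cripto KO lay within its interval. Tlr1 plus Tlr6, a sum that does not depend on how shared reads were split between them, was 47.6, 54.2 and 45.0 in the Controls, against 62.7, 52.4 and 52.8 in Cripto KO, which overlapped as well.

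Tlr4, the lipopolysaccharide receptor (chr4:66827584-66930284, plus strand), was 23.4, 21.7 and 21.7 in the Controls, against 21.9, 20.0 and 20.4 in Cripto KO. The groups overlapped through Cripto KO replicate 1, and the difference did not exceed the spread (log2 fold change 0.10, SE 0.09, limma adjusted p = 0.799, interval 0.928-fold to 1.24-fold). Without Control replicate 1 its log2 fold change was 0.064. Its co-receptor genes had very different levels. Cd14, which hands lipopolysaccharide to TLR4, was between 2644 and 3540 over the 6 samples, and Ly96, the MD-2 subunit that binds it, was between 12.9 and 15.9, with limma adjusted p = 0.932 and adjusted p = 0.990.

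**Figure D3:**
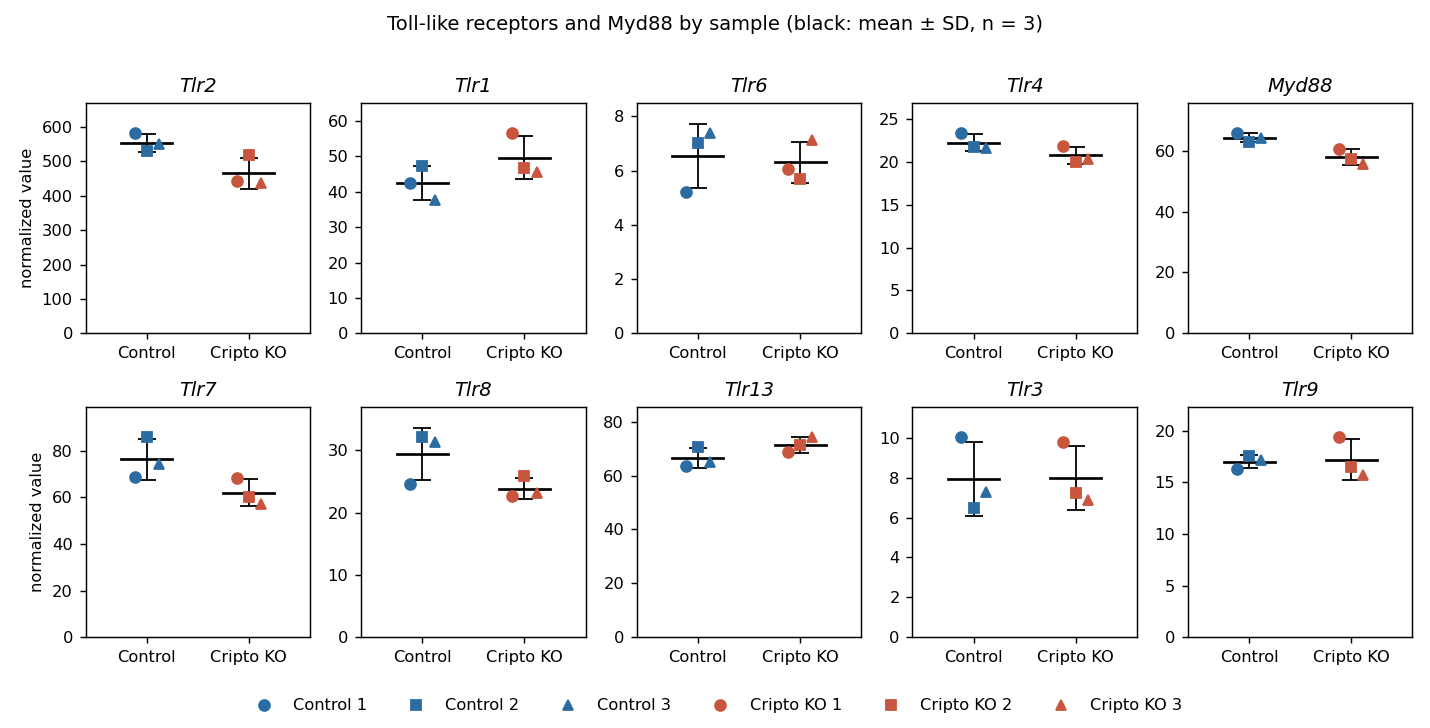
Normalized value (axis from 0) of each member in Control (blue) and Cripto KO (red) samples, with a symbol for each replicate and the mean ± SD (n = 3) in black. All 3 Control samples lie above all 3 Cripto KO samples for Tlr2, Tlr7 and Myd88, and the groups overlap for the other 7 members.

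Among the endosomal receptors, Tlr7 and Tlr8, which sense single-stranded RNA and lie beside each other on the X chromosome, were on average higher in Control. Tlr7 (chrX:167304929-167330558, minus strand) was 68.6, 85.9 and 74.2 in the Controls, against 68.4, 60.1 and 57.3 in Cripto KO. The groups did not overlap, but Control replicate 1 was only just above Cripto KO replicate 1. The means of 76.2 ± 8.86 and 61.9 ± 5.75 (SD, n = 3) gave a 1.23-fold difference with an interval of 1.05 to 1.44 (log2 fold change 0.30, SE 0.10, limma adjusted p = 0.500). Tlr8 (chrX:167242696-167264329, minus strand) was 24.6, 32.1 and 31.4 in the Controls, against 22.6, 25.8 and 23.1 in Cripto KO. Control replicate 1 was the lowest Control and lay below Cripto KO replicate 2, so the groups overlapped (1.22-fold, interval 1.01 to 1.48, log2 fold change 0.29, SE 0.12, limma adjusted p = 0.548).

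Tlr13, a receptor of bacterial ribosomal RNA that also lies on the X chromosome (chrX:106143204-106160493, plus strand), was 63.4, 70.6 and 65.1 in the Controls, against 68.5, 71.2 and 74.3 in Cripto KO. The groups overlapped, and the mean was slightly higher in Cripto KO samples (log2 fold change -0.11, SE 0.07, limma adjusted p = 0.724), opposite in sign to Tlr7 and Tlr8. The ratio of the normalized values of Tlr13 and Tlr7 was 0.874 ± 0.0519 for Control and 1.16 ± 0.149 for Cripto KO (SD, n = 3 each), with no overlap, whereas that of Tlr7 and Tlr8 had a mean of 2.61 in both groups. These ratios were chosen after the values were seen and were not tested.

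Control replicate 1, the sample with Xist, had the lowest Control value of all 3 X-linked receptors. Without it, the log2 fold change was 0.37 for Tlr7 (adjusted p = 0.268), 0.42 for Tlr8 (adjusted p = 0.234) and -0.07 for Tlr13 (adjusted p = 0.778). Without Control replicate 2, the sample with high Lyz2 and the highest Control value of all 3, the log2 fold change was 0.21 for Tlr7 (adjusted p = 0.657) and 0.22 for Tlr8 (adjusted p = 0.722). Leaving out Cripto KO replicate 3 gave 0.24 for Tlr7 (adjusted p = 0.881) and 0.27 for Tlr8 (adjusted p = 0.893). The unadjusted p was under 0.05 in 3 of the 6 fits without 1 sample for Tlr7 and in 2 of 6 for Tlr8. With all 6 samples it was under 0.05 in 10 of the 12 alternatives for each gene. The exceptions for both were quantile normalization and no trend. The part of Xist and Lyz2 in these values was not tested.

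Tlr3, the receptor of double-stranded RNA and the only member receptor that signals through Ticam1 instead of Myd88, and Tlr9, the receptor of unmethylated CpG DNA, showed no difference that exceeded the spread. Tlr3 (chr8:45395665-45411080, minus strand) was 10.0, 6.47 and 7.30 in the Controls, against 9.81, 7.26 and 6.86 in Cripto KO. Replicate 1 was the highest in each group and the groups overlapped, with a log2 fold change of -0.01 (SE 0.21, limma adjusted p = 0.990) and an interval of 0.715-fold to 1.37-fold. Of its 31-base words, 6.1% lie on the opposite strand of Gm45542, and the library kit did not mark strand, so reads of these genes cannot be told apart there. Tlr9 (chr9:106222598-106226883, plus strand) was 16.3, 17.5 and 17.2 in the Controls, against 19.4, 16.5 and 15.7 in Cripto KO. The Cripto KO samples spread on both sides of the Controls (log2 fold change -0.01, SE 0.11, limma adjusted p = 0.986, interval 0.831-fold to 1.18-fold).

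Tlr9 lies 4.713 Mb and Myd88 8.39 Mb from Tdgf1, the gene targeted in Cripto KO mice, on chromosome 9. Of the analysed genes beside Tlr9, Twf2, an actin-binding protein gene at 7.209 kb on the lower side, was 71.7, 80.1 and 76.9 in the Controls, against 78.1, 71.7 and 69.6 in Cripto KO (log2 fold change 0.06, limma adjusted p = 0.859). On the other side, Alas1, the rate-limiting enzyme of heme synthesis at 6.572 kb from Tlr9, was 115, 88.4 and 85.2 in the Controls, against 51.4, 51.6 and 47.0 in Cripto KO. Alas1 was higher in all 3 Controls and passed the test (log2 fold change 0.93, limma adjusted p = 0.0235). The call did not hold when Control replicate 3 was left out (adjusted p = 0.056), nor when Cripto KO replicate 1 (adjusted p = 0.0589), 2 (adjusted p = 0.125) or 3 (adjusted p = 0.0999) was, nor with quantile normalization, no trend, voom or a replicate block (adjusted p from 0.05004 to 0.251), while the log2 fold change stayed between 0.80 and 1.01 in all fits with a sample left out. Tlr9 itself, between Twf2 and Alas1, had a log2 fold change near 0.

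Myd88, the adaptor shared by the members except TLR3 and by IL-1 family receptors, was slightly lower in Cripto KO samples. Myd88 (chr9:119335934-119341411, minus strand) was 65.9, 62.9 and 64.2 in the Controls, against 60.7, 57.4 and 55.8 in Cripto KO. The groups did not overlap, and the CV among replicates was 2.28% and 4.29%, against a counting error of 3.44%. The means of 64.3 ± 1.47 and 57.9 ± 2.49 (SD, n = 3) differed 1.11-fold, with an interval of 0.997 to 1.24 (log2 fold change 0.15, SE 0.07, limma adjusted p = 0.598). The unadjusted p was not under 0.05 in any of the 12 alternatives with all samples and in only 1 of the 6 fits without a sample, that without Cripto KO replicate 1 (adjusted p = 0.628). Its start overlaps that of Acaa1a, a peroxisomal thiolase gene on the opposite strand, with 8.93% of the Myd88 words shared, so reads there cannot be told apart. Acaa1a was 116 to 126 in the Controls and 118 to 122 in Cripto KO (log2 fold change 0.02), and Oxsr1, the nearest analysed gene on the other side, had a log2 fold change of -0.03. The annotated Slc22a14, which also overlaps Myd88 on its own strand, was not analysed here.

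The mouse genes Tlr5, Tlr11 and Tlr12 were also looked up. Tlr5, the flagellin receptor, was 4.65 to 6.52 in the Controls and 3.08 to 6.10 in Cripto KO, with overlap (limma adjusted p = 0.754). Tlr11, a receptor of profilin of protozoan parasites, had only 2 to 6 reads. Tlr12, which acts with TLR11, was 7.47, 9.27 and 6.00 in the Controls, against 5.49, 5.63 and 4.24 in Cripto KO. All Control values of Tlr12 were higher, although the lowest of them was close to the highest Cripto KO value (log2 fold change 0.56, limma adjusted p = 0.522).

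The other genes of the pathway were read by role, and none in the following lists had an adjusted p under 0.05 in the main limma fit. Among 12 co-receptor and trafficking genes, 2 had an unadjusted p under 0.05, both higher in Control, against 4.6% of all genes that were higher in Control at that p, and the median log2 fold change was 0.07. The count was 0 after quantile normalization, with no trend and without Control replicate 2 or Cripto KO replicate 3. These were Slc15a4, an endolysosomal transporter needed for signaling by endosomal TLRs (log2 fold change 0.19, limma adjusted p = 0.524), and Hsp90b1, the chaperone gp96 that folds TLRs (0.21, adjusted p = 0.562). Cd36, a scavenger receptor that assists TLR2 and TLR6, was 520 to 626 in the Controls and 626 to 736 in Cripto KO (-0.20, adjusted p = 0.614), with overlap, and its log2 fold change was -0.12 without Control replicate 1 and -0.13 without Cripto KO replicate 1. Unc93b1, which carries the endosomal TLRs to endosomes, was 1261 to 1403 in the Controls and 1248 to 1351 in Cripto KO (adjusted p = 0.923).

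Among 24 adaptor and kinase genes, 4 were higher in Control and 1 was higher in Cripto KO samples at an unadjusted p under 0.05, against 8.59% of all genes in either direction, with a median of 0.04. The count of 5 became 0 with no trend and 2 without Control replicate 3, Cripto KO replicate 1 or Cripto KO replicate 3. Irf7, the transcription factor downstream of TLR7 and TLR9, was 463, 333 and 298 in the Controls, against 308, 233 and 255 in Cripto KO, which overlapped through replicate 1 of the Cripto KO samples (log2 fold change 0.44, limma adjusted p = 0.512). Control replicate 1 held the highest Irf7 value, and without it the log2 fold change was 0.26. The ubiquitin ligase gene Peli1 (0.24, adjusted p = 0.512), the kinase gene Ripk1 (0.22, adjusted p = 0.529) and Irak4, the kinase that binds Myd88 (0.20, adjusted p = 0.571), were the others higher in Control. Ikbke, a kinase of interferon regulatory factors, was 57.2, 38.9 and 40.8 in the Controls, against 56.2, 57.2 and 66.0 in Cripto KO. Control replicate 1 overlapped the Cripto KO samples (-0.41, adjusted p = 0.500), and without it the log2 fold change of Ikbke was -0.58.

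Of 12 inhibitors 11 were analysed, with a median of 0.06, and 0 had an unadjusted p under 0.05 or an adjusted p under 0.05 by limma. The lowest p were those of the phosphatase gene Inpp5d (0.14, adjusted p = 0.588), the deubiquitinase gene Cyld (0.15, adjusted p = 0.688) and Tnfaip3, which encodes A20 (0.13, adjusted p = 0.715). Of 6 IL-1 family receptor genes 5 were analysed, all low, with a median of -0.21. Of these, 1 had an unadjusted p under 0.05, against 8.59% of all genes in either direction. Groups did not overlap for 3 of the 5, Il1r1, Il1rl2 and Il1rap, against 14.5% of all genes. Il1r1, the receptor of IL-1, had 21 to 42 reads and a higher level in Control (log2 fold change 0.67, adjusted p = 0.533), whereas Il1rl2, the IL-36 receptor (-0.45, adjusted p = 0.587), and the co-receptor gene Il1rap (-0.21, adjusted p = 0.706) had a higher mean in Cripto KO samples. Without Control replicate 1 the log2 fold change of Il1rl2 was -0.24.

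Among 20 target genes of TLR signaling, 6 had an unadjusted p under 0.05, all higher in Control, against 4.6% of all genes that were higher in Control at that p, and the median log2 fold change was 0.19. Ptgs2, which encodes the prostaglandin synthase COX-2, was 331, 317 and 324 in the Controls, against 252, 243 and 246 in Cripto KO. The groups were far apart for their spread (log2 fold change 0.39, SE 0.06), and the adjusted p was 0.0571 by limma, 0.0369 with the robust option of limma and 0.000412 by DESeq2, with a range of 0.000412 to 0.336 over all alternatives. Nfkbiz, an atypical I-kappa-B protein that TLR signaling induces, was 267, 276 and 293 in the Controls, against 242, 215 and 223 in Cripto KO, again without overlap (0.30, limma adjusted p = 0.327). The chemokine genes Ccl3 (0.44, adjusted p = 0.470), Ccl4 (0.28, adjusted p = 0.517) and Ccl5 (0.53, adjusted p = 0.523) and the acute-phase gene Saa3 (0.80, adjusted p = 0.500) were the others. For Ccl3 the groups overlapped, with Cripto KO replicate 1 at 312 against 305 to 386 in the Controls. Saa3 had only 27 to 74 reads, and its log2 fold change was 0.59 without Cripto KO replicate 3. Ccl5 was 18.6 in Control replicate 1 and 11.8 and 11.3 in the other Controls, and without that replicate its log2 fold change was 0.30. The cytokine genes Tnf (-0.0013, adjusted p = 0.997), Il1b (0.11, adjusted p = 0.856) and Il6 (0.12, adjusted p = 0.929) overlapped between the groups.

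**Figure D4:**
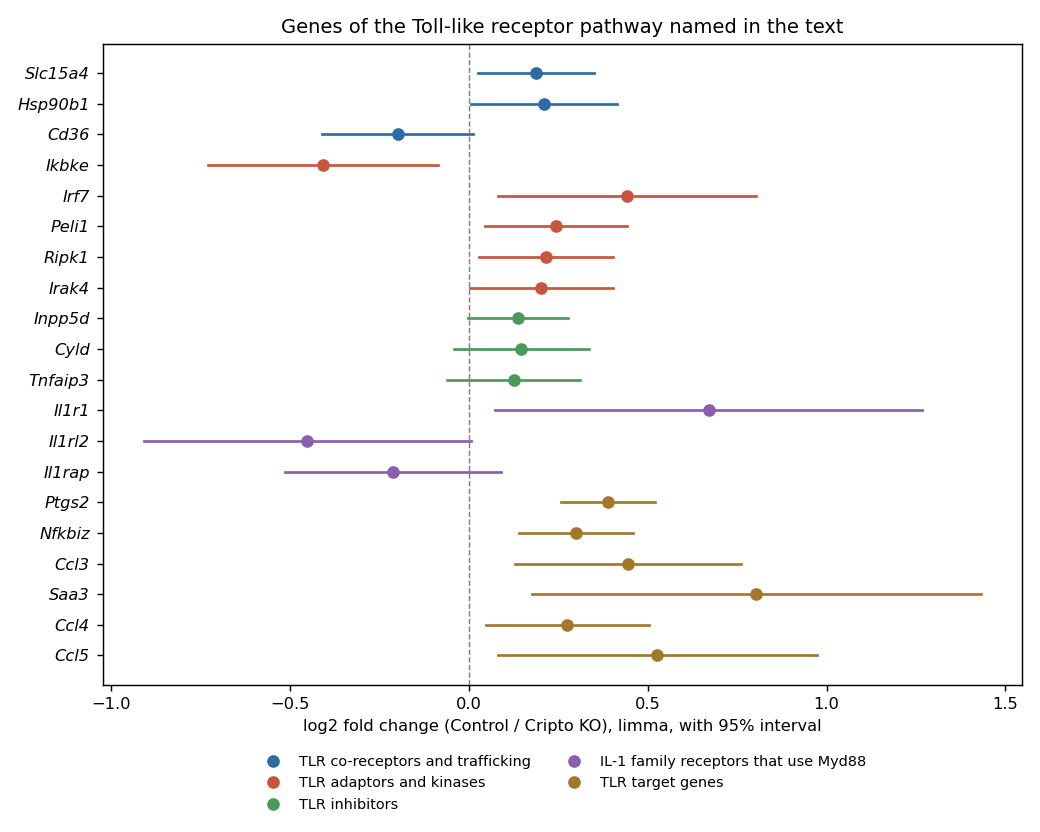
Log2 fold change of Control over Cripto KO, with the 95% interval from limma, for genes of the TLR pathway chosen by an unadjusted p under 0.05 or, in lists with fewer than 3 such genes, as the 3 with the lowest p. The 6 target genes (brown) all lie above 0, while Ikbke, Cd36, Il1rl2 and Il1rap lie below it.

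Markers of some other cells moved with the groups at an unadjusted p, though 0 of them had an adjusted p under 0.05 by limma. Of 6 fibroblast markers, which include collagen genes, 5 had an unadjusted p under 0.05 and were higher in Cripto KO samples. Among all 13008 genes, 519 were higher in Cripto KO at that p. The summed value of the fibroblast markers was 459 to 481 in Control and 540 to 591 in Cripto KO samples. Of 6 muscle fiber markers, 4 were higher in Control at that p, against 4.6% of all genes. The sum of the muscle fiber markers was 26.6 to 64.6 in Control and 9.44 to 40.4 in Cripto KO samples, with replicate 1 the highest in each group. Of 5 endothelial markers, 0 had an unadjusted p under 0.05 and 0 an adjusted p under 0.05 by limma, and their sums overlapped. The part of these cells in the values of the TLR genes was not tested.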

How the data were processed

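RNA-seq libraries (NEBNext Ultra, which does not mark strand) of 3 Control and 3 Cripto KO samples were quantified by the authors with Cutadapt 1.7.1 and RSEM 1.2.20 on GRCm38 and normalized with limma, per the submitters' processing notes and the study's methods. The deposited table holds a normalized signal per gene and sample. No value was 0, and 100.0% of 78048 values gave whole reads within 0.01 read, as reads plus 0.5 scaled to a normalized library size.

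Groups, taken from the sample titles, were compared with limma 3.58.1 in R 4.3.3 (trended eBayes) on the log2 scale with no pseudocount added, and p-values were adjusted by Benjamini-Hochberg over 13008 genes. Tests are two-sided, and intervals are 95% intervals of the fit. Alternatives were pseudocounts, a minimum mean, centring, quantile normalization, no trend, robust eBayes, voom, edgeR 4.0.16 and DESeq2 1.42.0 on recovered reads, a replicate block, and each sample left out. Only the main limma fit was checked on simulated data, with differences larger than those of the members.

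The members and gene lists were chosen with earlier results of these data known. Named are the members, Tlr5, Tlr11, Tlr12, the genes of each pathway list with an unadjusted p under 0.05 or else the 3 with the lowest p, the neighbors of Tlr9 and Myd88, defining markers and Xist. Lyz2, Cd14, Ly96, Unc93b1, Tnf, Il1b and Il6 were named after their values were seen. Of symbols on several rows the row with the highest mean was used. Positions and lengths come from GENCODE mouse release 21 (GRCm38) and promoters from RefSeq.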

Additional observations from a re-analysis of the deposited data

How the results depend on the processing

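Over the 18 alternatives, the members gave 180 log2 fold changes, of which 171 kept their direction and side of the adjusted threshold and 9 changed sign, in Tlr3, Tlr6 and Tlr9, whose estimates are near 0. Genes with an adjusted p under 0.05 numbered 17, against 6 after quantile normalization, 5 without a trend, 31 with robust eBayes, 0 with voom (1121 at an unadjusted p under 0.05) and 74 by DESeq2, and between 5 and 31 with 1 sample left out. Genes at an unadjusted p under 0.05 numbered 1117, and 741 to 1360 with 1 sample left out. Members at that p numbered 3, against 1 after quantile normalization and 1 without a trend, and 0 to 3 with 1 sample left out, 0 being without Cripto KO replicate 3. Members without overlap numbered 3, against 1 after quantile normalization and 3 to 5 with 1 sample left out. The share over all genes was 14.5% with all 6 samples and was not counted in these other settings. With 1 sample left out, fewer values have to be separated, so these counts cannot be compared directly. With 1 sample left out, the log2 fold change ranged from -0.20 to 0.15 for Tlr3 (0.12, 0.034 and 0.15 where the sign changed, and 0.0095 after quantile normalization), from -0.057 to 0.20 for Tlr6 (-0.018, -0.057 and -0.028) and from -0.075 to 0.078 for Tlr9 (0.018 and 0.078). Oxsr1 ranged from -0.13 to 0.073 (0.045 and 0.073 where the sign changed) and Acaa1a from -0.012 to 0.049, and Acaa1a was -0.043 after quantile normalization. The cause was not tested.

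With a replicate block, 2 genes had an adjusted p under 0.05 and 3 members an unadjusted p under 0.05. The labels do not say that a number marks a shared animal or day, the deviations of same-numbered samples correlated by -0.21, -0.00522 and -2.46e-05, and 0 of 6 samples correlated best with their own number in the other group. Lengths from RefSeq proteins were planned but not run. Depth limits Tlr6, Tlr3 and Tlr9 most, with fewest reads, and Tlr11, at 2 to 6 reads, had a log2 fold change of 0.67 with an interval of -0.69 to 2.02.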
